A study of Mus musculus with 12 samples.

Results

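Among the 85565 transcripts listed for each library of mouse skin RNA, 794 were at 0 estimated reads in all 3 libraries of at least 1 group while at least 1 other group had 10 or more estimated reads in each of its 3 libraries. These 794 transcripts are called members here. They were chosen by these measured values, so which groups are at 0 and which are high is a description and not a result. MGP_FVBNJ_T0002465 to MGP_FVBNJ_T0002485, a block of 21 consecutive identifiers, were left out by the rule, and 1 transcript among them would have met both thresholds. All 794 members passed the filter of 10 summed reads that left 54539 transcripts to be tested.

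The libraries come from whole back skin of female FVB mice, 3 in each of 4 groups. UT WT mice were wild type and untreated. WT DMBA mice were wild type and received the carcinogen DMBA on the skin each week for 6 weeks, at 200 ng by the design text, while the study's methods give molar doses. Tcrb-/- DMBA mice lack the beta chain of the T cell receptor, so they have no alphabeta T cells but keep gammadelta T cells and other immune cells, and were treated in the same way. Tcrb-/- + Treg DMBA mice were Tcrb-/- recipients given CD4+CD25+ regulatory T cells (Tregs) of WT donors by vein before the same treatment. The treatment field of the WT DMBA samples reads naive, and they were placed by their titles. Whether each library stands for 1 animal is not given by the labels, and the spread that p-values rest on is that between libraries and may be technical. The identifiers are those of FVB/NJ transcripts, of which 0 matched the gene tables used here, so no gene can be named and the labelled tissue could not be checked against its markers. Identifiers are written below without their shared start, MGP_FVBNJ_.

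A transcript is 1 version of a gene's RNA, and 1 gene often makes several versions that share most of their sequence. A read from a shared stretch fits each of them, and Salmon, the program the authors used, divides such reads among the versions by likelihood, so that an estimate can be 0 in a library in which the gene itself is read. In annotations of this kind, versions of 1 gene often have close identifier numbers. The question put to each member was therefore whether the transcripts within 10 identifier numbers of it changed the other way. In whole skin, fewer cells of a type and less RNA per cell cannot be told apart for any of these transcripts.

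UT WT was the group most often at 0. It was at 0 for 385 members, against 178 for WT DMBA, 170 for Tcrb-/- DMBA and 199 for Tcrb-/- + Treg DMBA. Over all tested transcripts the share at 0 in a whole group differed less between groups, at 10.1% for UT WT, 9.04% for WT DMBA, 8.79% for Tcrb-/- DMBA and 9.38% for Tcrb-/- + Treg DMBA. The UT WT libraries held 21687192 to 31701620 estimated reads and those of the other groups 17312566 to 25003790, and the part of depth in these counts was not tested. A count of 0 allows up to 3 reads, or 0.0946 to 0.173 CPM at these depths, for counting error only, where CPM is the estimated reads scaled to a common library total of 1e+06. The commonest patterns were 0 in UT WT with 10 or more reads in Tcrb-/- + Treg DMBA alone (72 members), in Tcrb-/- DMBA alone (67) or in both (64).

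**Figure D1:**
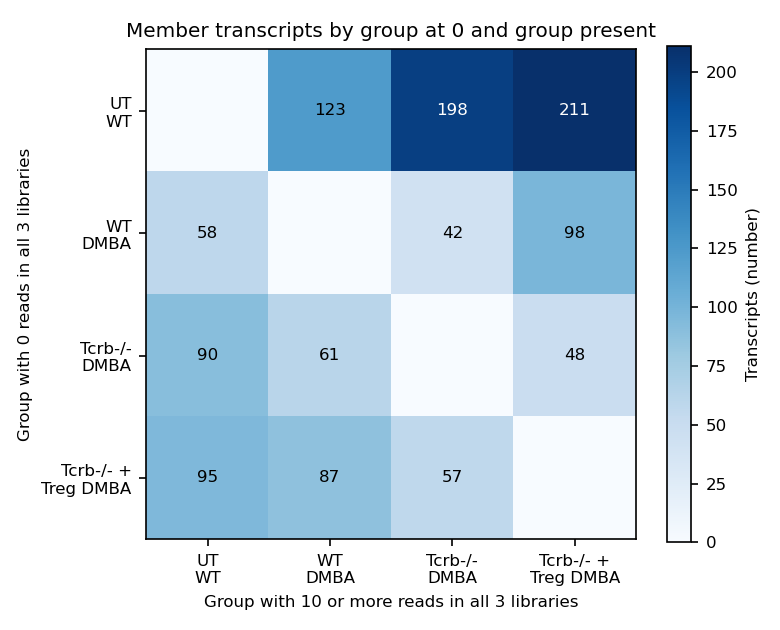
Number of member transcripts for each group at 0 in all 3 libraries (rows) and each group with 10 or more estimated reads in all 3 (columns); a member with several such groups is counted in each cell it fits. The highest cells lie in the UT WT row, with 198 members present in Tcrb-/- DMBA and 211 in Tcrb-/- + Treg DMBA, and the lowest is 42, for 0 in WT DMBA and presence in Tcrb-/- DMBA.

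Few members followed genotype or treatment across all 4 groups. Only 56 of 794 had every group either at 0 or at 10 or more. Of these, 26 were at 0 in UT WT and present in the 3 DMBA groups, and 7 were the reverse. A single member was at 0 in both Tcrb-/- groups and present in both WT groups, and 1 showed the opposite. Presence in all groups but 1 was found for 5 members at 0 in Tcrb-/- DMBA alone, 2 at 0 in Tcrb-/- + Treg DMBA alone and 1 at 0 in WT DMBA alone. Of all members, 673 were at 0 in 1 group, 104 in 2 and 17 in 3.

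Most members were present at a modest level. In the group with most reads, the lowest library held a median of 27.1 estimated reads, 231 members had at least 50 and 115 had at least 100, and the highest was 1244. Members were longer than tested transcripts as a whole, with a median length of 1958 nt (nucleotides) against 1712 nt, and shorter than the transcripts with 10 or more reads in every library of some group, at 2301 nt. Estimates were whole numbers in every library, within 0.01, for 39 members (4.91%). This share was near the 5.49% of the other transcripts with 10 or more reads throughout a group and the 6.67% of all tested transcripts. Just inside the threshold stood T0038621.1, T0043697.1 and T0053166.1, whose lowest library held 10 reads. Just outside it were T0093559.1, T0078528.1 and T0045477.1 at 9.97, 9.94 and 9.93 reads, and T0002646.1, T0002645.1 and T0088135.1, whose group nearest to 0 reached 1 read.

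The rule reads whole groups, and the remaining groups show how steady the zeros were. In 586 of the 794 members (73.8%), at least 1 other group held both a library at 0 and a library with 10 or more reads. The same was seen in 36.2% of all tested transcripts, and in 19.7% of the 29409 transcripts that had 10 or more reads throughout a group without being members. These sets were not matched for level, and members were chosen for a group at 0. A group can be mixed only where it is neither at 0 nor at 10 or more reads throughout. Of such members, Tcrb-/- DMBA was mixed for 265 of 358 and WT DMBA for 222 of 362. Tcrb-/- + Treg DMBA was mixed for 200 of 289 and UT WT for 190 of 210. Among members at 0 in 1 group alone, a mixed group was found in 193 of 313 for UT WT (61.7%), 91 of 114 for Tcrb-/- DMBA (79.8%), 130 of 146 for Tcrb-/- + Treg DMBA (89.0%) and 92 of 100 for WT DMBA, counts that were added after seeing the data and carry no test.

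Among members at 0 only in WT DMBA, T0044831.1, of 8357 nt, had the most reads. It held 1149, 775 and 1446 reads in UT WT, 0 in each WT DMBA library, 0, 1562 and 0 in Tcrb-/- DMBA, and 518, 839 and 1359 in Tcrb-/- + Treg DMBA. The single Tcrb-/- DMBA library with reads was the highest of all 12, while the other two of that group were at 0. T0069029.1 (1460 nt) likewise held 337, 0 and 161 reads in UT WT and 761, 149.7 and 0 in Tcrb-/- DMBA, beside 393, 2496 and 929 in Tcrb-/- + Treg DMBA. In T0060371.1 (5482 nt), 1 UT WT library held 457 reads and the other two 0, and the Tcrb-/- DMBA libraries held 339.6, 0 and 578. Each of these 3 was thus at 0 in some but not all libraries of Tcrb-/- DMBA, and 2 of them also in UT WT.

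Of the 3 members at 0 only in Tcrb-/- DMBA with most reads, each also had a library at 0 in another group. T0026081.1 (2920 nt) held 0, 0 and 369.9 reads in UT WT, 509, 0 and 462 in WT DMBA, and 919.6, 540.2 and 349.7 after Treg transfer. T0032225.1 (3967 nt) held 311, 398 and 339 reads in WT DMBA, and was at 0 in 1 library each of UT WT and Tcrb-/- + Treg DMBA. T0042114.1 (3985 nt) was present in all 6 WT libraries, between 48.4 and 852 reads, and held 154, 148 and 0 in Tcrb-/- + Treg DMBA. The WT DMBA means were 133-fold higher than 3 reads per library of Tcrb-/- DMBA for T0032225.1 and 83.1-fold higher for T0042114.1. These are groups that the rule used, and the limit of 3 reads covers counting error only, not reads divided among versions.

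At 0 only in Tcrb-/- + Treg DMBA, T0034646.1 and T0034645.1 have adjacent identifiers and similar lengths, 2875 and 2790 nt. T0034646.1 held 604, 856 and 471 reads in UT WT, 101, 53.5 and 0 in WT DMBA and 0, 0 and 339 in Tcrb-/- DMBA. T0034645.1 held 238, 438 and 222 reads in UT WT, 242, 317 and 287 in WT DMBA and 177, 205 and 0 in Tcrb-/- DMBA. In the Tcrb-/- DMBA group the library that held T0034646.1 was the one that lacked T0034645.1, whereas both were at 0 in all 3 Treg libraries. T0034654.1, 9 identifiers from T0034645.1 and of nearly the same length (2791 nt), lay at 1.60 CPM ± 2.77 in WT DMBA and 12.7 CPM ± 2.60 in Tcrb-/- + Treg DMBA (SD, n = 3; edgeR adjusted p = 0.489), where T0034645.1 went from 14.9 CPM ± 2.97 to 0. The sum of these 2 was 16.5 CPM ± 2.72 in WT DMBA and 12.7 CPM ± 2.60 in Tcrb-/- + Treg DMBA, and their correlation over the 12 libraries was r = -0.758. T0034654.1 was picked out by this correlation, after the values were seen. The 19 neighbours of T0034645.1 that were not members summed to 192.6 CPM ± 29.1 in WT DMBA and 192.2 CPM ± 10.8 in Tcrb-/- + Treg DMBA (SD, n = 3).

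**Figure D2:**
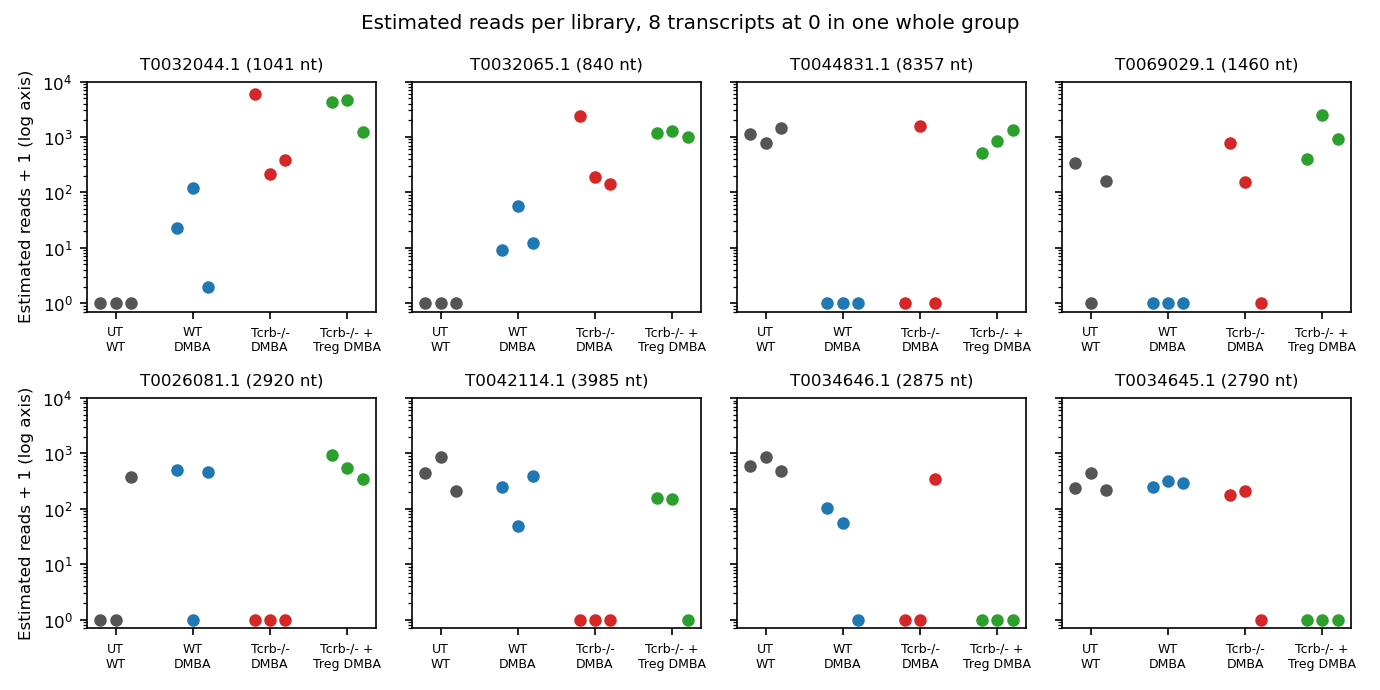
Estimated reads plus 1 in each of the 12 libraries, on a log axis, for 8 members; each point is 1 library, coloured by group, and points at 1 are libraries at 0 reads. T0032044.1 and T0032065.1 lie at 0 in UT WT, at 1 to 119.8 reads in WT DMBA and at 140 or more in the Tcrb-/- groups, whereas the other 6 mostly jump between 0 and over 100 reads within a group, as in Tcrb-/- DMBA for T0044831.1 (0, 1562 and 0 reads).

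The 3 members at 0 only in UT WT with most reads had reads in each library of the other groups. T0032044.1 (1041 nt) held 0 reads in each UT WT library, 22, 119.8 and 1 in WT DMBA, 5945, 214 and 390 in Tcrb-/- DMBA, and 4229, 4568 and 1244 in Tcrb-/- + Treg DMBA. T0032065.1 (840 nt) held 8, 55 and 11 reads in WT DMBA, 2388, 190 and 140 in Tcrb-/- DMBA and 1180, 1305 and 993 in Tcrb-/- + Treg DMBA. T0032067.1 (736 nt) held 5.09, 29 and 3, then 1465, 120.4 and 120.5, then 829, 936 and 775. In all 3 the same WT DMBA library was highest of its group and the first Tcrb-/- DMBA library stood far above the other two. The Tcrb-/- DMBA mean of T0032044.1, 99.3 CPM ± 148 (SD, n = 3), was at least 807-fold higher than 3 reads per library of UT WT, and its SD exceeded its mean. Without the first Tcrb-/- DMBA library, left out after seeing the data, the mean was 13.8 CPM and the bound 112-fold. With 1 pair of groups taken for each member, the median bound over members was 15.7-fold. Each bound compares groups that the rule used and covers counting error only, not reads divided among versions.

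These 3 transcripts belong to a cluster of members with close identifiers. Counting members as linked when their identifiers lie within 10 of one another, 544 members stood alone, 79 sets held 2 members, 15 held 3, and 4 runs held 6 or more. The runs reached from T0025715.1 to T0025726.1 (11 members), T0032039.1 to T0032072.1 (17), T0044690.1 to T0044728.1 (13) and T0061850.1 to T0061861.1 (6). Of these 47 members, all but T0044690.1 were at 0 in UT WT. Their median lengths were 679, 840, 605 and 582 nt, well under the 1958 nt of members as a whole. The runs were picked out after the values were seen, so their levels are given without a test.

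In each of the 4 runs, the summed level was higher in every Tcrb-/- DMBA and Tcrb-/- + Treg DMBA library than in every WT library. Against UT WT this was in large part fixed by the rule, since all these members but T0044690.1 were at 0 there. Against WT DMBA it is a description, since the runs were picked out after the values were seen. The 11 members from T0025715.1 summed to 0 in UT WT, to 0.0905, 0.495 and 3.06 CPM in WT DMBA, to 10.9, 24.3 and 191 CPM in Tcrb-/- DMBA and to 79.6, 101 and 177 CPM in Tcrb-/- + Treg DMBA, each from low to high. The 17 members from T0032039.1 summed to 0 in UT WT, 1.30 to 29.7 CPM in WT DMBA, 68.4 to 1092 CPM in Tcrb-/- DMBA and 330.2 to 627 CPM in Tcrb-/- + Treg DMBA. The order within groups differed between runs. In the run from T0061850.1 the second Tcrb-/- DMBA library was highest of its group, at 83.4 CPM against 51.6 CPM in the first. In the run from T0044690.1 the UT WT libraries, at 3.45 to 8.40 CPM, lay above 2 of the 3 WT DMBA libraries (0.423 and 2.39 CPM). Between any 2 runs the log2 sums correlated over the 12 libraries with r from 0.751 to 0.978, where the libraries share their depth and their groups. The members were chosen by their zeros, which for all but T0044690.1 lay in UT WT, so part of this correlation was fixed by the rule. A single Tcrb-/- DMBA library held 1092 CPM of the run from T0032039.1 and 510.4 CPM of the run from T0044690.1, against 70.8 and 68.4, and 16.1 and 26.4, in the other two.

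**Figure D3:**
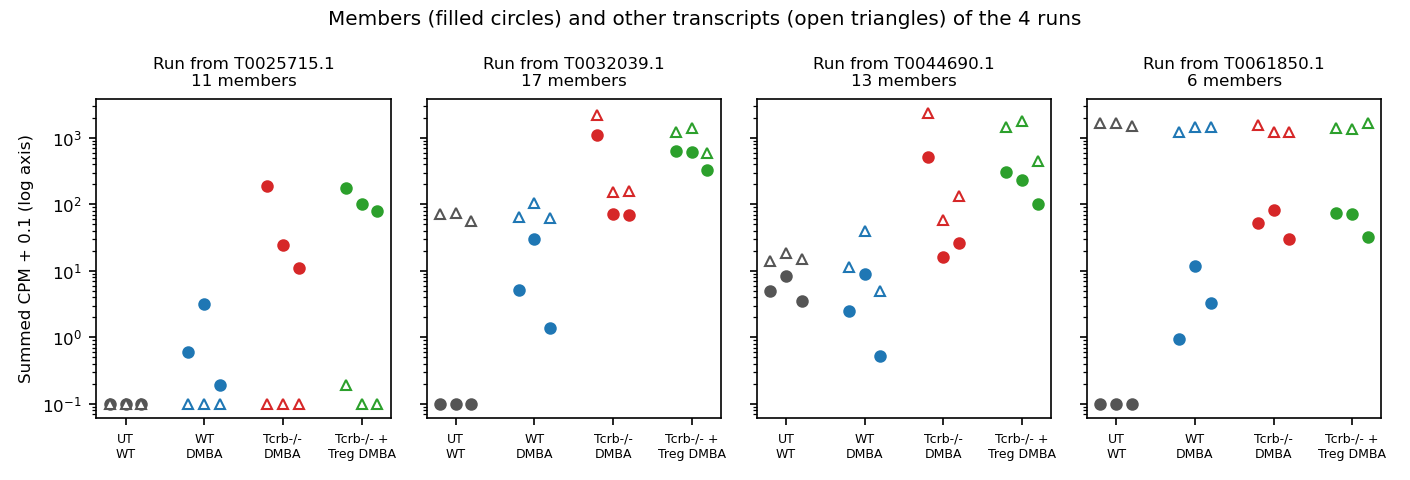
Summed CPM plus 0.1 per library, on a log axis, for the members (filled circles) and for the other transcripts with identifiers inside each run (open triangles), coloured by group. Members sit at 0 in UT WT in 3 runs and between 10.9 and 1092 CPM in the Tcrb-/- groups in those 3, and the other transcripts of the run from T0032039.1 run parallel to them, from 56.9 to 74.5 CPM in UT WT to 593 to 1407 CPM in Tcrb-/- + Treg DMBA.

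The other transcripts inside these runs were not used by the rule, but the runs were picked out after the values were seen. They lie among members nearly all at 0 in UT WT, and whether they share reads with those members was not tested. Their calls against UT WT are therefore not independent of that choice. By edgeR's quasi-likelihood test (adjusted p under 0.01 and a fold above 2), 12 of 15 tested ones in the run from T0032039.1 and 4 of 20 in the run from T0044690.1 were higher in Tcrb-/- + Treg DMBA than in UT WT, and 0 were lower. Between Tcrb-/- DMBA and UT WT the same rule called 1 of the 15 and 0 of the 20 higher and 0 lower, while at an unadjusted p under 0.05, 14 and 18 were higher and 0 and 1 lower. Of the 6 in the run from T0061850.1, 1 was called higher in Tcrb-/- + Treg DMBA than in UT WT and 0 lower. Between Tcrb-/- DMBA and UT WT 1 of them was called higher and 1 lower, with 3 higher and 2 lower at an unadjusted p under 0.05. Of all tested transcripts, 1.97% were called in either direction between Tcrb-/- + Treg DMBA and UT WT, and 1.08% between Tcrb-/- DMBA and UT WT. For the latter pair, 16.3% had an unadjusted p under 0.05. Within DMBA-treated skin, 0 of the runs' other transcripts were called in any pair of groups, and 0 between WT DMBA and UT WT. Within the run from T0044690.1, T0044690.1 itself was the exception, with 104, 266 and 75.9 reads in UT WT and 0 in the other 9 libraries. Its neighbour T0044698.1 rose from 0.0154 CPM ± 0.0266 in UT WT to 127 CPM ± 78.3 in Tcrb-/- + Treg DMBA (SD, n = 3; edgeR adjusted p = 0.00545). In the run from T0061850.1, T0061857.1 moved against 4 of the members, from 271 CPM ± 36.8 in Tcrb-/- DMBA to 1046 CPM ± 59.0 in UT WT (edgeR adjusted p = 0.00623), a difference of 776 CPM. T0061851.1, the member of that run with most reads, held 427, 731 and 240.1 reads in Tcrb-/- DMBA, a mean of 22.0 CPM.

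Calls over whole transcript tables set the scale for the neighbours. By edgeR's test at an adjusted p under 0.01 and a fold above 2, the share of all 54539 tested transcripts called was 0.00367% between Tcrb-/- DMBA and WT DMBA and 0.0147% between Tcrb-/- + Treg DMBA and Tcrb-/- DMBA. It was 0.396% between Tcrb-/- + Treg DMBA and WT DMBA, and against UT WT it was 0.231% for WT DMBA, 1.08% for Tcrb-/- DMBA and 1.97% for Tcrb-/- + Treg DMBA. Of the members, 64 were called in a pair of groups that the rule had used, from which nothing is read. In pairs of groups of the same status, that is both present throughout or both neither present throughout nor at 0, edgeR called 0 members, 38 passed an unadjusted p of 0.05, and DESeq2 called 6. The share of members at an unadjusted p under 0.05 in such pairs was 9.89% between Tcrb-/- DMBA and WT DMBA, against 6.70% of all tested transcripts, 3.41% between Tcrb-/- + Treg DMBA and Tcrb-/- DMBA, against 6.97%, and 8.33% between Tcrb-/- + Treg DMBA and WT DMBA, against 14.0%. Against UT WT it was 0 of 61 members for WT DMBA, 3 of 99 for Tcrb-/- DMBA and 1 of 72 for Tcrb-/- + Treg DMBA, where 11.4%, 16.3% and 19.1% of all tested transcripts passed. Pairs in which a member's status differed were left out, so these shares are in part set by that choice. In UT WT, 190 of the 210 members of neither status held both a library at 0 and one with 10 or more reads. The members' shares can therefore not be read against those of all tested transcripts.

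Neighbours called by edgeR in the direction of their member outnumbered those called against it. The 794 members had 15249 neighbours within 10 identifiers that were not members, of which 10711 were tested. A neighbour was called the other way, higher where its member was at 0, for 41 members, in 42 combinations with 38 different neighbours. A neighbour called in the member's own direction was found for 114 members, and 9 members had both. Over every neighbour and pair of groups, 0.295% were called the other way, where 0.412% of all tested transcripts were called in the same pairs and direction. In the member's direction, 2.10% were called against 0.446% of all. Members with close identifiers share neighbours, which were counted for each, so these shares carry no test. Without the 4 runs they were 0.277% against 0.397% the other way, and 0.777% against 0.426% the same way. With DESeq2, 146 members had a neighbour called the other way. Neither calls in the member's direction nor the share of all transcripts called were counted there. This number can therefore not be set against the edgeR shares above.

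The order of the shares was the same at a lower threshold and at each distance. At an unadjusted p under 0.05, in 1 pair of groups per member, 4.99% of neighbours moved the other way and 11.3% the same way, against 6.19% and 6.76% of all tested transcripts. Outside the runs these shares were 4.96% and 8.63%, against 6.15% and 6.62%. The share moving the other way lay between 4.25% and 5.65% at every distance from 1 to 10 identifiers. The share moving the same way was 14.3% at a distance of 1 and 9.83% at a distance of 10.

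Neighbours with higher and with lower levels were found for similar shares of members. In 656 members (82.6%), some neighbour was higher in the group at 0 by at least 50% of the member's own CPM difference. A neighbour that was lower there by as much was found for 689 members (86.8%). For each member the neighbour with the largest difference was taken, and the same shares were not computed for other transcripts. These shares therefore say nothing particular to members. In 38 of the 42 combinations called the other way, the neighbour gained more than 200% of what the member lost.

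Anticorrelated neighbours were commonest at adjacent identifiers. Over the 12 libraries, on log2(CPM + 0.5), 54 of 1150 adjacent neighbours (4.70%) correlated with their member at r under -0.7. At distances of 2 to 10 this share was 0.662% to 2.45%. Among all tested transcripts it was 2.40% for adjacent identifiers and 0.968% to 1.27% further away. Correlations over 0.7 were also commonest between adjacent identifiers, at 8.96% for members and 4.39% for all tested transcripts. These correlations rest on the same 12 libraries and, for members, include the zeros used to choose them.

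**Figure D4:**
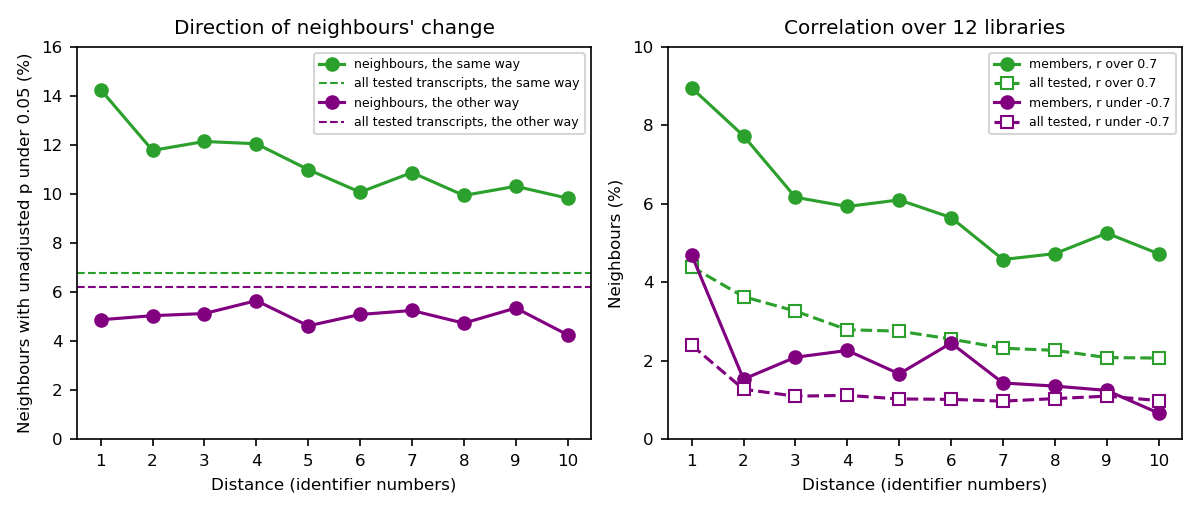
Neighbours of members by distance in identifier numbers from 1 to 10. Left, percentage with an unadjusted edgeR p under 0.05 in the same or the other direction as the member, with dashed lines for all tested transcripts in the same pairs and directions (6.76% and 6.19%); right, percentage with a correlation over 0.7 or under -0.7 across 12 libraries, for members (filled) and all tested transcripts (open). The other-way share stays under its line at every distance, and correlations under -0.7 peak at a distance of 1, at 4.70%.

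The anticorrelated adjacent neighbours were also similar to their members in length, which the rule had not used. Of the 54, 29 (53.7%) had a length within 5% of the member's, against 207 of the 1096 other adjacent neighbours (18.9%). At distances of 2 to 10 the lengths were this close in 22 of 156 anticorrelated neighbours (14.1%) and 5.75% of the rest. The limit of 5% was set after the lengths were seen, and the difference was not tested. Lengths were not compared for anticorrelated transcripts other than the neighbours of members. In all, 185 members had a neighbour with r under -0.7, in 210 combinations. Only 9 of these neighbours were called by edgeR in the 1 pair of groups examined for each member, and 91 had an unadjusted p under 0.05.

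Some of these pairs, chosen here after their values were seen, took one another's place library by library. T0088713.1 (3101 nt) was at 0 in WT DMBA and held 268, 313 and 0 reads in UT WT, 0, 296 and 42.4 in Tcrb-/- DMBA, and 269, 145 and 246 in Tcrb-/- + Treg DMBA. T0088714.1 (3052 nt) held 0, 0 and 279 reads in UT WT, 307, 243 and 405 in WT DMBA, 286, 0 and 402 in Tcrb-/- DMBA, and 0, 218 and 0 in Tcrb-/- + Treg DMBA. In 10 of the 12 libraries exactly 1 of the 2 was above 0. Their sum lay between 9.88 and 19.5 CPM throughout, with a coefficient of variation of 20.3%, against 105% for the member and 93.2% for its neighbour.

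T0071902.1 (3381 nt) and T0071900.1 (3694 nt) gave a similar picture. T0071902.1 held 0, 247 and 189 reads in UT WT, 0, 82.2 and 115 in WT DMBA, 0 in Tcrb-/- DMBA and 86.8, 167 and 117 in Tcrb-/- + Treg DMBA. T0071900.1 held 174, 0 and 0, then 116, 0 and 49.3, then 145, 123 and 135, then 54.0, 0 and 0. The sum of both lay between 4.75 and 8.59 CPM. T0067901.1 (4496 nt), present in the 3 WT DMBA libraries and 1 Treg library alone, had a far more abundant neighbour, T0067900.1 (4627 nt). T0067900.1 lay at 30.01 to 43.3 CPM in the 3 WT DMBA libraries and at 37.8 CPM in that Treg library, and at 49.98 to 61.5 CPM in the other 8. With the member added, the range over all 12 narrowed to 42.6 to 61.5 CPM.

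T0074956.1 (8027 nt), at 0 in Tcrb-/- + Treg DMBA, ranged from 8.36 to 28.1 CPM in the other 9 libraries. Its neighbour T0074955.1 (8246 nt) lay at 33.4, 42.8 and 44.9 CPM in Tcrb-/- + Treg DMBA, against 27.2, 18.9 and 19.0 CPM in WT DMBA, and rose by a log2 fold change of 1.09 (SE 0.162, edgeR adjusted p = 0.00905). This gain of 18.6 CPM was 79.3% of the 23.5 CPM ± 4.54 that the member held in WT DMBA. The sum of the 2 was 45.2 CPM ± 2.66 in WT DMBA and 40.4 CPM ± 6.15 in Tcrb-/- + Treg DMBA (SD, n = 3). T0021471.1 (1600 nt), at 0 in WT DMBA and Tcrb-/- DMBA, held 5.48 CPM ± 1.82 in UT WT. Its neighbour T0021468.1 (1607 nt) rose from 0.856 CPM ± 0.122 in UT WT to 7.22 CPM ± 0.505 in WT DMBA (edgeR adjusted p = 0.00173), a gain of 116% of the member's level. Other transcripts near it gained more. T0021474.1 (2084 nt) rose from 16.2 CPM ± 2.23 in UT WT to 40.9 CPM ± 3.66 in Tcrb-/- DMBA (SD, n = 3; edgeR adjusted p = 0.00279), or by 449.9% of the member's level, and the adjacent member T0021470.1 (1620 nt) went from 0 in UT WT to 142, 643 and 444 reads in WT DMBA, where T0021471.1 itself had held 148, 198 and 74.95 reads in UT WT.

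The differences of other called neighbours ranged from less than the member's own to far above it. T0060519.1 (891 nt) held 15.0 CPM ± 5.56 in UT WT and was at 0 in all 6 Tcrb-/- libraries, while T0060513.1 (3121 nt) rose from 8.02 CPM ± 5.74 in UT WT to 493 CPM ± 73.3 in Tcrb-/- DMBA (SD, n = 3; edgeR adjusted p = 0.000993). The gain was 3235% of the member's level. T0043738.1 (1709 nt), with 104, 104 and 117 reads in UT WT, was at 0 in all but 1 of the other libraries, and its adjacent neighbour T0043739.1 (3126 nt) went from 10.01 CPM ± 2.28 in UT WT to 54.8 CPM ± 9.19 in Tcrb-/- DMBA (edgeR adjusted p = 0.000825). T0039930.1 (9467 nt), at 0 in UT WT and at 155 to 739.7 reads in the other 9 libraries, had a neighbour, T0039936.1 (918 nt), at 28.2 to 30.9 CPM in UT WT and 9.19 to 21.8 CPM elsewhere. That neighbour's difference between UT WT and Tcrb-/- DMBA, 17.9 CPM, was 72.1% of the member's (edgeR adjusted p = 0.00884).

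Members near one another could also exchange groups. Of 285 pairs of members within 10 identifiers, 188 shared a group at 0 and a group of presence, and 31 did the reverse, each being present in a group where the other was at 0. Outside the 4 runs these numbers were 33 and 27 of 119 pairs. Of the 31, 8 were adjacent, 7 had lengths within 5% of one another, and 11 correlated under -0.7 over the 12 libraries. Since both members of a pair were chosen by their zeros, these counts are descriptions.

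T0064852.1 (770 nt) and T0064853.1 (848 nt) were the pair with the lowest correlation, r = -0.959. T0064852.1 held 0, 0 and 151 reads in UT WT and 92.0, 90.6 and 84.6 in Tcrb-/- DMBA, and 0 in both other groups. T0064853.1 held 176, 177 and 0 in UT WT, 47.3, 85.7 and 78.7 in WT DMBA, 0 in Tcrb-/- DMBA, and 73.7, 58.8 and 90.6 in Tcrb-/- + Treg DMBA. Every library thus held exactly 1 of them, and the UT WT library that lacked T0064853.1 was the one with T0064852.1. Their sum lay between 2.35 and 8.13 CPM.

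T0050763.1 (5634 nt), at 0 in Tcrb-/- DMBA alone, had its counterpart in T0050764.1 (5588 nt), which held 96, 98 and 120 reads in Tcrb-/- DMBA and 85.8 in 1 UT WT library, and 0 in the other 8. T0028467.1 (4268 nt) and T0028468.1 (4272 nt) had whole-number estimates in every library. T0028468.1 held 111, 221 and 109 reads in UT WT, where T0028467.1 was at 0, while T0028467.1 held 16, 37 and 24 in Tcrb-/- + Treg DMBA, where T0028468.1 was at 0. In WT DMBA they held 0, 56 and 47 against 57, 0 and 0 reads, and in Tcrb-/- DMBA 51, 0 and 90 against 0, 83 and 0. T0083216.1 (5053 nt) and T0083217.1 (5056 nt) exchanged in the same way, with 48, 76 and 45 reads of the first in UT WT and 139, 200 and 204 of the second in Tcrb-/- DMBA. The sums of these last pairs also differed between groups. T0083216.1 and T0083217.1 summed to 2.04 to 2.40 CPM in UT WT and 6.32 to 12.2 CPM in the other groups. T0028467.1 and T0028468.1 summed to 4.95 to 6.97 CPM in UT WT and 0.691 to 1.48 CPM in Tcrb-/- + Treg DMBA.

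**Figure D5:**
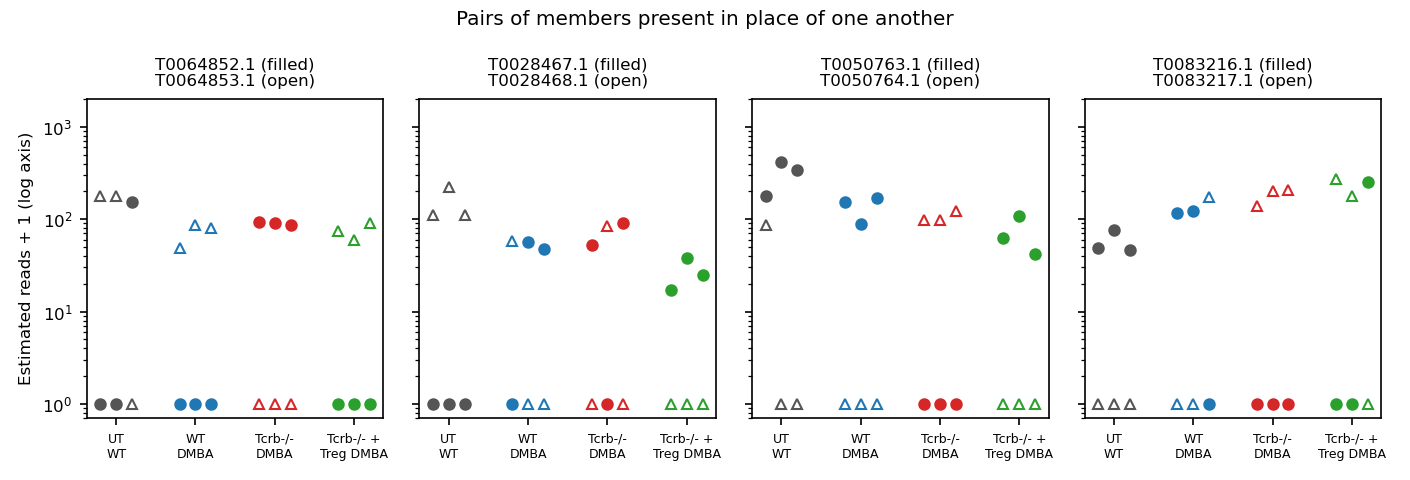
Estimated reads plus 1 per library, on a log axis, for 4 pairs of members with adjacent identifiers (filled circles and open triangles), coloured by group; points at 1 are libraries at 0. In 3 of the pairs every library holds exactly 1 of both transcripts, and in T0050763.1 with T0050764.1 the first UT WT library holds both, at 176 and 85.8 reads.

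A strict exchange of this kind was rare. Among 894 combinations of a member and an adjacent transcript in which both had 10 or more reads in at least 3 libraries, exactly 1 of both was above 0 in every library for 3 (0.336%). Over all such adjacent transcripts in the tables, members or not, the share was 0.326% (70 of 21474). At distances of 2 to 10 it was 0.0585% for members and 0.0211% for all.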

How the data were processed

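The authors mapped TruSeq poly(A) reads to FVB/NJ cDNA with Salmon 1.5.2, with quality checks by FastQC 0.12.1, MultiQC 1.11 and Picard, per the labels' processing notes and methods. Each deposited table gives per transcript an estimated count (not normalized), TPM (scaled for length and total), and lengths. The members and lists were chosen with earlier results of these data known. Estimated counts were rounded and tested in 1 fit of all 12 libraries with edgeR 4.0.16 (TMM, quasi-likelihood, 10 or more summed reads, Benjamini-Hochberg) in R 4.3.3. Standard errors are the log2 fold change over the square root of F. DESeq2 1.42.0 was an alternative. CPM are estimated counts scaled to a common library total of 1e+06. Depth was 17312566 to 31701620 estimated reads, and limits for counts of 0 cover counting error only. The scripts were tested on simulated data.

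Members were to be named as the 3 with most reads for each set of groups at 0 and those with a neighbour called the other way, up to 30. The rule gave more than 30, so, after values were seen, the 3 for each single group were taken and then 18 of the latter by reads. Replicates of 1 group differed by at least 24.5 chi-square units per transcript, so none was counted as a repeat of another. Exact permutation tests of the named members' neighbour sums cannot pass a threshold with 3 against 3 libraries and are not reported. Deviations from group means of same-numbered libraries correlated between -0.0492 and 0.102 over 18 combinations. Sequences and coordinates of these transcripts were not used here.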

Additional observations from a re-analysis of the deposited data

How the results depend on the processing

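The number of members depends on its thresholds: 1216 with a minimum of 5 reads and 495 with 20, against 794. Leaving out 1 library gave 1116 to 1488, since a group is then judged on 2 libraries; it was over 1.5 times higher without UT WT replicates 1, 2 or 3 (1338, 1284 and 1488), Tcrb-/- DMBA replicate 2 (1211) or Tcrb-/- + Treg DMBA replicates 2 or 3 (1236 and 1210). Members with a neighbour called the other way (41) and such combinations (42) were 19 and 20 with a window of 5 identifiers, 81 and 96 with 20, 146 and 173 with DESeq2, 11 and 11 in fits of each pair's 6 libraries, 86 and 96 at an adjusted p under 0.05, and 447 and 720 at an unadjusted p under 0.05. With a replicate block they were 23 and 23; same-numbered libraries share only a number. Leaving out 1 library gave 11 to 44 and 11 to 48; the counts fell by more than 1.5 times without any of the 3 UT WT libraries (13, 11 and 21 members), WT DMBA replicates 2 or 3 (24 and 25), Tcrb-/- DMBA replicate 2 (24) or Tcrb-/- + Treg DMBA replicate 1 (16). The causes were not tested. Members called between groups of the same status were 0 in every edgeR fit, 6 with DESeq2 and, in an alternative added after seeing the data, 38 at an unadjusted p under 0.05. Of 112 alternatives, 74 stayed within 1.5 times. Members with an offset of 50% or more (656) ranged from 506 to 748, and from 655 to 670 with 1 library left out. The adjacent neighbours with r under -0.7 (54) were 41 on CPM without log and 49 to 62 with 1 library left out, both added after seeing the data. Estimated counts divide shared reads between transcripts, and a 0 allows up to 3 reads per library.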
